A study of Mus musculus with 8 samples.

Results

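Complement is a cascade of plasma and surface proteins that tags particles and damaged cells. In the classical pathway the recognition molecule C1q activates the proteases C1r and C1s, which cut C4 and C2. In the alternative pathway factor B joins activated C3, and both routes meet at C3. The liver makes most circulating complement, but fibroblasts also make C1r, C1s, C3, C4, factor B and the C1 inhibitor, and interferon and inflammatory cytokines are known to raise several of them. The genes described here were 6 complement genes, C1ra, C3, C4b, Cfb, Serping1 and Cd55, selected by name from a table of 24972 genes.

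Total RNA was sequenced from primary mouse embryonic fibroblasts, cultures grown from embryos of embryonic day 14 and passaged before harvest, with no treatment. There were 8 libraries, 2 for each of 4 genotypes. WT cells carried both Tfam alleles and Zbp1. Tfam+/- cells lacked 1 allele of Tfam, which encodes a protein that packages mitochondrial DNA. Zbp1-/- cells lacked Zbp1, a sensor of nucleic acids, and Tfam+/-Zbp1-/- cells, the double mutant, combined both losses. Nothing in the labels ties the replicates to separate embryos, so p-values measure the spread between these libraries, which may be technical.

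Library totals were 16752835 to 18303036 normalized counts, the authors' scaled read counts per gene. Tfam was at 278 to 424 in the 4 libraries lacking 1 allele and at 471 to 675 in the others. Zbp1 was at 64.6 and 69.8 in Tfam+/- and at 0.86 to 7.34 elsewhere, too low in WT to check the Zbp1-/- label. All 10 fibroblast markers were measured, with summed levels of 500519 to 737087. The 7 hepatocyte markers summed to 4.05 to 15.7, and Fgb and Serpina1a were listed at 0 in all libraries. The 10 macrophage and leukocyte markers were all tested and none was at 0, with sums of 2415 to 6000. Across genes the differences between replicates in Tfam+/- and in Zbp1-/- ran in opposite directions (r = -0.70). Tfam+/- replicate 1 and Zbp1-/- replicate 2 thus tended to lie on the same side of their genotype means. Results of the complement genes are therefore also given with a model term shared by these 2 libraries, a pair chosen from the data. Because of that choice, p-values with the term can be too small. The same r would arise had the opposite 2 replicates shifted, a term for which was not fitted. That term would fit the values equally well. It can give other changes in comparisons with Tfam+/- or Zbp1-/- and for the interaction, so results with the term there rest on the choice of pair.

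Tests were made by limma on log2(normalized count + 1) over 13267 genes with a mean of at least 10, and calls were made at an adjusted p (Benjamini-Hochberg) under 0.05. Of the 6 complement genes 5 passed this filter, while Cfb (mean 4.16) did not and is described by its values. Levels per kb of the longest coding transcript gave the order of abundance in WT. Cd55 stood at 229 normalized counts per kb, Serping1 at 176, C1ra at 118, C3 at 8.32, C4b at 2.49 and Cfb at 0.69. Neighbours in this order did not overlap between WT libraries. In Zbp1-/- Serping1 came first, at 370, and the libraries of Cd55 (280) and C1ra (209) overlapped.

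**Figure D1:**
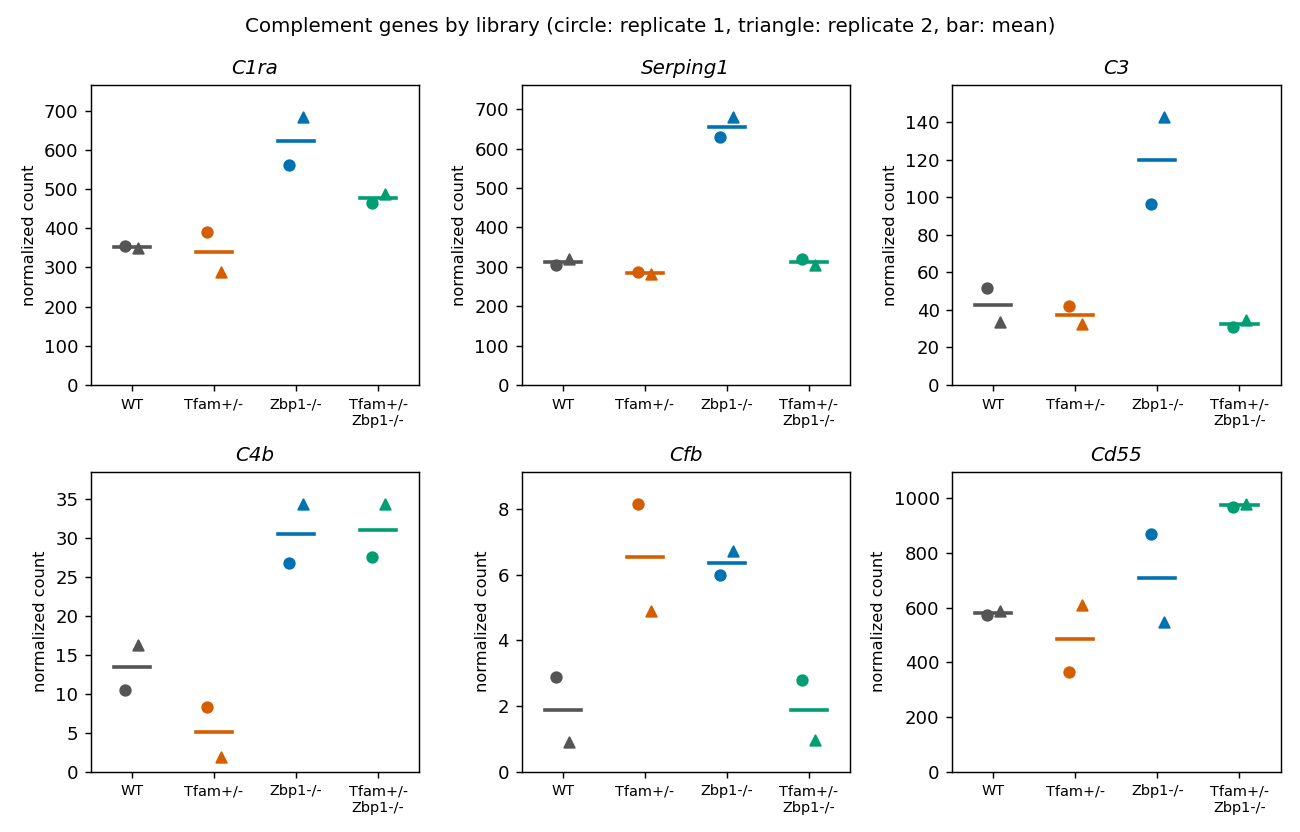
Normalized counts of the 6 complement genes (vertical axis, from 0) in the 8 libraries by genotype, with circles for replicate 1, triangles for replicate 2 and bars for means. Serping1 and C3 stand highest in both Zbp1-/- libraries, and Cd55 is highest in both Tfam+/-Zbp1-/- libraries.

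The proteases that start the classical pathway are described first. C1ra (chromosome 6, 124512621 to 124523440, mm10) encodes the protease C1r, which cuts and activates C1s. It was at 355 and 349 normalized counts (WT), 391 and 288 (Tfam+/-), 561 and 683 (Zbp1-/-), and 464 and 488 (double mutant). The libraries lacking Zbp1 were all above those that had it, while WT and Tfam+/- overlapped. The log2 change in Zbp1-/- against WT was 0.81 ± 0.17 (SE) and not called (limma, adjusted p 0.097), though it was called without either Tfam+/- library (adjusted p 0.048 and 0.047). With the shared term it was 0.63 ± 0.08 and called (adjusted p 5.8e-06).

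C1ra shares much of its sequence with a neighbouring copy. Of the 50-base windows of its transcript 48.0% also occurred in C1rb, which was at 0 in 6 libraries and at most at 2.20. The labels do not say how reads were assigned between the copies.

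C1s1 (chromosome 6, 124530344 to 124542392) lies beside C1ra and encodes C1s, the protease that cuts C4 and C2. Its normalized counts were 352 and 315 (WT), 315 and 341 (Tfam+/-), 560 and 586 (Zbp1-/-), and 471 and 521 (double mutant). These groups have the same order as for C1ra, with the 4 libraries lacking Zbp1 above the other 4. C1s1 rose in Zbp1-/- against WT by 0.78 ± 0.12 (limma, adjusted p 0.045). In the double mutant it rose against Tfam+/- by 0.59 ± 0.12 (adjusted p 0.039). Both calls were lost without either WT library or either Tfam+/-Zbp1-/- library, the former also without either Zbp1-/- library (0.70 to 0.86) and the latter also without either Tfam+/- library (0.52 to 0.67). Both were also lost after rescaling the libraries by trimmed means. C1s1 shares 24.3% of the 50-base windows of its transcript with the copy C1s2.

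The promoter windows of these neighbours are shown because the genes have the same order over the genotypes, together with those of C3 and Cd55, which differ from them. RefSeq windows (GRCm38.p6, the assembly also called mm10) run from 250 bases before the start listed with each window and hold 300 bases, and 3 of the 6 complement genes had one. That of C1s1 is 1 of 2 listed for the gene. For C1s1 and Cd55 the window belongs to a start inside the gene interval given here, not at its outer end. They are written 5′ to 3′ on the strand of the gene, and capitals mark motif matches.
C1ra, chr6:124512371-124512670, plus strand: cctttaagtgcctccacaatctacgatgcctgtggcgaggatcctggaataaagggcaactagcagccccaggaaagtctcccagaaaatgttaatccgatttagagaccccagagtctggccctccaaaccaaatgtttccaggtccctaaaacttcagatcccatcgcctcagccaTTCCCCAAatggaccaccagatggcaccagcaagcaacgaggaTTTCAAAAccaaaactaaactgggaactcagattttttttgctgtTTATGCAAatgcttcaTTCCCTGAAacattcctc
C1s1, chr6:124542310-124542609, minus strand: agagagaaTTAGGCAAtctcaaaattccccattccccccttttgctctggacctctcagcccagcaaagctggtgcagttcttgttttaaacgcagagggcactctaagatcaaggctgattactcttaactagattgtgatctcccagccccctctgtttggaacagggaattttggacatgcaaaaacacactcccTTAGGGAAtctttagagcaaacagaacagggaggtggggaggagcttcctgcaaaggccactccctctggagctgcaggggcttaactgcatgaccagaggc
C3, chr17:57228087-57228386, minus strand: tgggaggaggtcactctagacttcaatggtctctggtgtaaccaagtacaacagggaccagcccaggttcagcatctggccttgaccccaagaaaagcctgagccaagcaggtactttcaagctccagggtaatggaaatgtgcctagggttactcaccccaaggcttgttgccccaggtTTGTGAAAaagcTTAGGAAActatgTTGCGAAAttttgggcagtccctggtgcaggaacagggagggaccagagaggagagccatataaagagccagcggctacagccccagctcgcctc
Cd55, chr1:130462695-130462994, minus strand: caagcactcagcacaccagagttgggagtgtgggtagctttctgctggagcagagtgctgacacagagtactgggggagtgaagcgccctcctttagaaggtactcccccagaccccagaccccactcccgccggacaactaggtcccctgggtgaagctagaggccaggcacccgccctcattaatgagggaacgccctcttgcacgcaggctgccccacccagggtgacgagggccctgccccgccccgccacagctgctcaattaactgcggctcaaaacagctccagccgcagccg

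Motifs searched on both strands were the interferon-stimulated response element (GAAA, any 2 bases, GAAA), the gamma-activated site TTCNNNGAA bound by STAT factors, the C/EBP motif TTNNGNAA and the NF-kB consensus. The interferon element was in none of these 4 windows, and 3.44% of the 32851 windows of all genes held it. A gamma-activated site was in the C1ra window, 32 bases after the start, and 8.30% of all windows held one. C/EBP matches were in C1ra, C1s1 and C3, as in 40.7% of all windows, and in C3 a match on each strand fell on the same bases, 45 before the start. No NF-kB match was found in the 4 windows, against 8.46% of all. A match is a string of letters and not a binding site.

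C4b (chromosome 17, 34728139 to 34743902) encodes C4, which C1s cuts and which binds covalently to targets. C4b was at 10.5 and 16.3 normalized counts (WT), 8.35 and 1.94 (Tfam+/-), 26.8 and 34.4 (Zbp1-/-), and 27.6 and 34.4 (double mutant). The 4 libraries lacking Zbp1 were above the other 4, and both Tfam+/- libraries were below both WT libraries. C4b rose in Tfam+/-Zbp1-/- against Tfam+/- by 2.60 ± 0.55 (limma, adjusted p 0.045), or 3.11 ± 0.44 with the shared term. Without any library other than Tfam+/- replicate 1 this call was lost, with values of 1.77 to 2.75 and adjusted p of 0.052 to 0.27, and it was lost after rescaling by trimmed means (2.50, adjusted p 0.052).

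The near copy C4a, annotated by RefSeq as a transcribed pseudogene in this assembly, was at 4.53 to 13.9 and was not tested. It shares 35.2% of the 50-base windows of C4b, so reads could be split between them, and the level of C4b is uncertain to that extent. Against WT, C4b had a log2 change of -1.43 (Tfam+/-, adjusted p 0.52), 1.15 (Zbp1-/-, 0.29) and 1.17 (double mutant, 0.46), each ± 0.55, and limma called none of the 3.

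C3 (chromosome 17, 57203967 to 57228136) encodes the central component of all pathways. Normalized counts of C3 were 51.8 and 33.6 (WT), 42.1 and 32.4 (Tfam+/-), 96.6 and 143 (Zbp1-/-), and 30.6 and 34.7 (double mutant). Both Zbp1-/- libraries stood above the other 6, which overlapped between genotypes. The ratio of means was 2.80 in Zbp1-/- over WT and 0.273 in Tfam+/-Zbp1-/- over Zbp1-/-. On the log2 scale these changes were 1.47 ± 0.30 (limma, adjusted p 0.082) and -1.82 ± 0.30 (adjusted p 0.078), and neither was called. Under the shared term they were 1.24 ± 0.25 (adjusted p 9.0e-04) and -1.59 ± 0.25 (adjusted p 1.2e-04), and both were called.

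Factor B and C2 are the proteases that pair with activated C3 and C4. Cfb (chromosome 17, 34856374 to 34862514), for factor B, was at 2.88 and 0.91 normalized counts (WT), 8.16 and 4.91 (Tfam+/-), 5.98 and 6.73 (Zbp1-/-), and 2.78 and 0.96 (double mutant). Each single mutant was above both WT and the double mutant, at levels of a few normalized counts. C2, named after its values were seen, was likewise higher in each single mutant than in WT and the double mutant. C2 was at 72.2 and 91.2 (WT), 159 and 118 (Tfam+/-), 143 and 193 (Zbp1-/-), and 81.8 and 86.0 (double mutant). Its interaction, the effect of losing a Tfam allele without Zbp1 less that effect with Zbp1, was -1.72 ± 0.32 (limma, adjusted p 0.086), and -1.29 with the shared term (adjusted p 0.0011).

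Of the regulators, Serping1 (chromosome 2, 84765360 to 84775444) encodes the C1 inhibitor, the serpin that inactivates C1r and C1s. Serping1 was at 304 and 319 normalized counts (WT), 287 and 281 (Tfam+/-), 629 and 680 (Zbp1-/-), and 321 and 304 (double mutant). Both Zbp1-/- libraries were above the other 6 and both Tfam+/- libraries below the other 6, while WT and the double mutant overlapped. The mean went from 311 ± 10.7 (SD, n = 2) in WT to 655 ± 35.9 in Zbp1-/-, a log2 change of 1.07 ± 0.11 (limma, adjusted p 0.018). From Zbp1-/- to Tfam+/-Zbp1-/- it fell by 1.06 ± 0.11 (adjusted p 0.035).

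Serping1 in Tfam+/-Zbp1-/- was beside WT, with a log2 difference of 0.00 and a 95% interval of -0.26 to 0.27, and the difference was -0.11 after rescaling by trimmed means. The interaction was -0.93 ± 0.16 and not called (limma, adjusted p 0.065), and with the shared term it was -0.86 ± 0.13 (adjusted p 1.0e-04). Both called changes of Serping1 were lost without any library other than the Tfam+/- ones, at 1.01 to 1.13 against WT (adjusted p 0.052 to 0.22) and -1.12 to -1.01 against Zbp1-/- (adjusted p 0.11 to 0.49).

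Cd55 (chromosome 1, 130429798 to 130465009) encodes decay-accelerating factor, a membrane protein that takes apart the C3 convertases. Cd55 was at 574 and 587 normalized counts (WT), 364 and 611 (Tfam+/-), 870 and 549 (Zbp1-/-), and 969 and 980 (double mutant). The double mutant was above the other 6 libraries, and the low library of each single mutant was 1 of the 2 libraries that share the term. The double mutant differed from Tfam+/- by 1.05 ± 0.29 on the log2 scale (limma, adjusted p 0.095) and from WT by 0.75 ± 0.29 (adjusted p 0.35), neither called. Without Tfam+/- replicate 2 the first was called, at 1.42 (adjusted p 0.036). In Zbp1-/- against WT the libraries overlapped, and Cd55 changed by 0.25 ± 0.29, not called (limma, adjusted p 0.59). Under the shared term, whose pair was chosen from the data, Cd55 was called higher in Zbp1-/- against WT (0.60 ± 0.06, adjusted p 6.0e-07). That call rests on the choice of pair, since Zbp1-/- replicate 2, at 549, was below both WT libraries. With the term Cd55 was also called higher in Tfam+/-Zbp1-/- against WT (0.75 ± 0.06, adjusted p 6.9e-09) and against Tfam+/- (0.69 ± 0.06, adjusted p 5.1e-08). Its near copy Cd55b, which shares 13.3% of the 50-base windows, was at 0.98 or less.

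Without the shared term, 0 or 1 of the 5 tested complement genes was called in each comparison. In Tfam+/- against WT limma called 0 of the 5 tested, with C4b at an unadjusted p under 0.05, where 0.731% of all tested genes were called (0.565% higher). Their median log2 change was -0.17, against -0.01 over all genes, and for Serping1 the 95% interval was -0.40 to 0.13. In the same comparison all 18 interferon-stimulated genes were above 0, with a median of 2.61, and 16 of them were called higher. None of the 5 tested complement genes had a log2 change above 0. Cfb, under the filter, was higher in both Tfam+/- libraries (8.16 and 4.91) than in WT (2.88 and 0.91). Of the 22 other complement genes tested 15 were above 0, with a median of 0.20. C1ra (-0.25, adjusted p 0.037) and C4b (-1.93, adjusted p 0.0052) were called lower with the shared term, where 15.6% of all genes were called, or 15.4% in the 6 other libraries alone.

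In Zbp1-/- against WT 1 of 5 was called, Serping1, against 1.06% of all genes (0.897% higher), and all 5 were above 0, with a median of 1.07 against 0.11 over all genes. Of the 22 other complement genes tested 8 were above 0, with a median of -0.22. With the shared term 4 of 5 were called (C1ra, C3, Serping1 and Cd55), where 35.6% of all genes were, and in the 6 other libraries 34.3% were. C4b was the exception, at 0.65 (adjusted p 0.27). All 10 fibroblast markers were also above 0 in this comparison, with a median of 0.47 and 1 called, and their sums were 629360 and 737087 in Zbp1-/- against 536536 and 534970 in WT. The 5 neural crest and Schwann cell markers summed to 340 and 322 in Zbp1-/- and to 123 to 209 in the other genotypes. The part of these in the complement values was not tested.

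In Tfam+/-Zbp1-/- against WT limma called 0 of 5, with C1ra and Cd55 at an unadjusted p under 0.05, against 1.38% of all genes called (0.897% higher and 0.482% lower). C1ra, C4b and Cd55 were called higher with the shared term, where 42.5% of all genes were called, or 44.8% in the 6 other libraries. Against Tfam+/- 1 of 5 was called, C4b, where 5.64% of all genes were (3.32% higher and 2.32% lower). Without either double mutant library that share was 0.098% and 0.0904%, and C4b was not called. With the shared term 3 of 5 were called (C1ra, C4b and Cd55), where 45.6% were, or 43.6% in the 6 libraries. Against Zbp1-/- 1 of 5 was called, Serping1, where 0.415% of all genes were (0.309% lower). The shared term gave 2 of 5 (C3 and Serping1), where 23.8% were, or 23.4% in the 6 libraries.

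For the interaction limma called 0 of 5, with C3 and Serping1 at an unadjusted p under 0.05, where 0.663% of all genes were called. The shared term gave 3, where 16.9% of all genes were called, or 19.1% in the 6 libraries. C3 (-1.18) and Serping1 (-0.86) lay below 0 and C4b (2.46) above 0. These values rest on the choice of pair for the term. Without the term the C4b interaction was 1.45 ± 0.78 and not called (limma, adjusted p 0.33). For the interaction the estimates with the term are those of the other 6 libraries, and in those alone C3 missed the threshold (adjusted p 0.056). Comparisons against the same group share its libraries and are not independent.

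**Figure D2:**
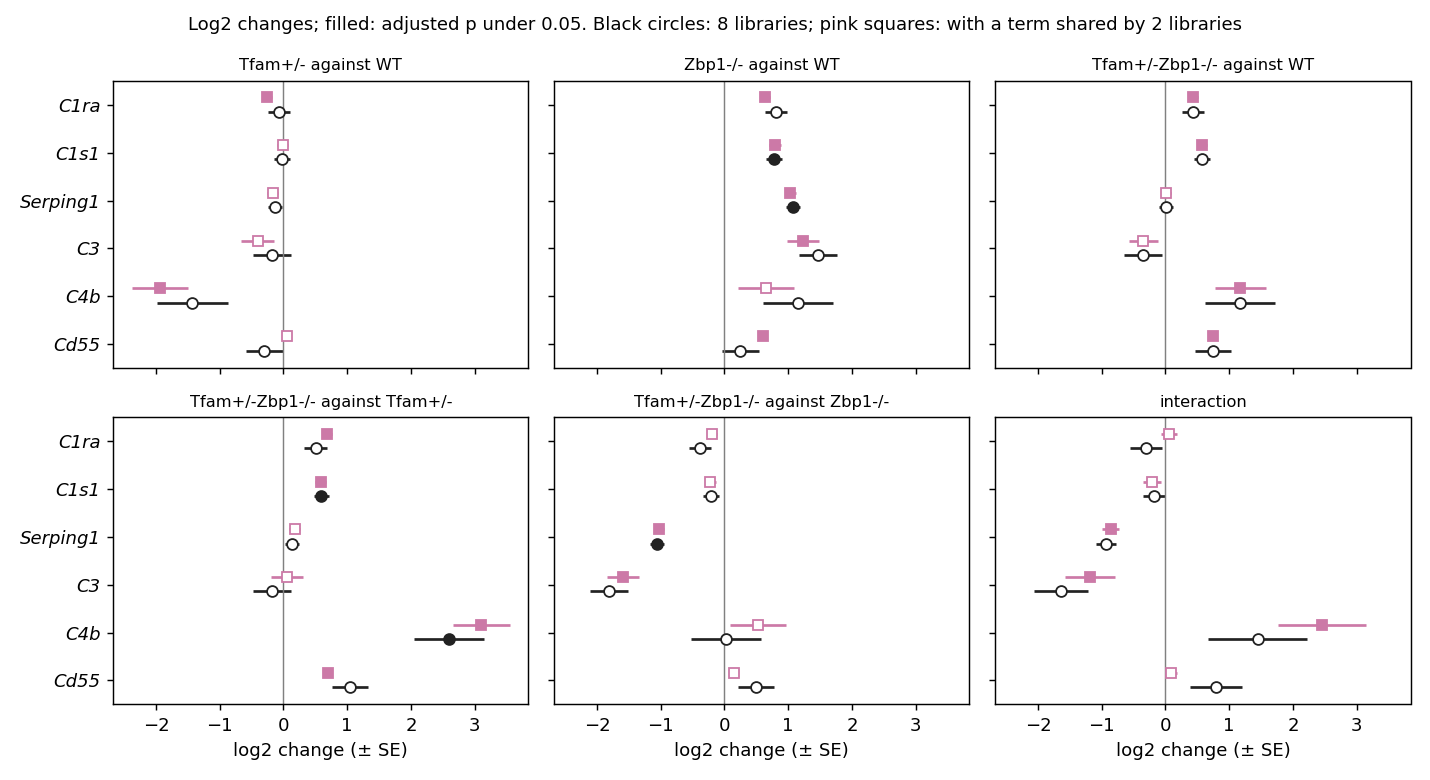
Log2 change (horizontal axis, ± SE) of C1ra, C1s1, Serping1, C3, C4b and Cd55 in the 6 comparisons, from all 8 libraries (black circles) and with a term shared by Tfam+/- replicate 1 and Zbp1-/- replicate 2 (pink squares), filled where the adjusted p was under 0.05. Serping1 and C3 lie to the right in Zbp1-/- against WT and to the left in Tfam+/-Zbp1-/- against Zbp1-/-.

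The wider pathway was read from a list of 56 complement genes, of which 27 were tested. None of the 7 terminal components (Hc, C6, C7, C8a, C8b, C8g and C9) passed the filter, and the highest value among them was 12.3, for C8g. The 27 gave 0 calls in Tfam+/- against WT, 2 in Zbp1-/- against WT (Serping1 and C1s1, higher), 2 in the double mutant against WT (C5ar1 and Itgam, lower), 1 against Zbp1-/- (Serping1, lower) and 0 for the interaction. In Tfam+/-Zbp1-/- against Tfam+/- 9 of 27 were called, 2 higher (C4b and C1s1) and 7 lower, where 5.64% of all genes were called. Their median over the 27 was -0.18, against 0.14 over all genes. The shared term gave 21 calls, 8 higher and 13 lower, where 45.6% of all genes were called. Without either WT library or Tfam+/- replicate 1 the count was 5, and without either double mutant library it was 0.

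The 7 that fell were the C1q chains C1qa, C1qb and C1qc and the receptors C5ar1, Itgam, Itgb2 and Cd93. C1qb, a chain of the recognition molecule C1q, was at 380 and 414 normalized counts (WT), 792 and 541 (Tfam+/-), 290 and 341 (Zbp1-/-), and 188 and 209 (double mutant). It fell by 1.72 ± 0.20 in Tfam+/-Zbp1-/- against Tfam+/- (limma, adjusted p 0.0059). C1qa and C1qc fell by 1.67 and 1.55. C1q genes were highest in Tfam+/- and lowest in the double mutant, an order unlike that of C1ra and C1s1.

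Itgam, a subunit of the receptor for cleaved C3, fell by 1.39 ± 0.17 in the same comparison (limma, adjusted p 0.0062), Itgb2, its partner subunit, by 1.55, C5ar1, a receptor for C5a, by 1.18 and Cd93 by 1.17. Against WT, Itgam (-1.20, adjusted p 0.029) and C5ar1 (-0.94, adjusted p 0.049) were also called lower. Without either Tfam+/-Zbp1-/- library all 7 calls against Tfam+/- were lost. Over all 8 such fits the 7 changes were -2.04 to -1.08, and without Tfam+/- replicate 1 C1qa and Itgb2 lost their calls. Cd93 lost its call without either Tfam+/- library, and C1qa and Cd93 without either WT library. The calls of Itgam and C5ar1 against WT were lost without either WT library or either Tfam+/-Zbp1-/- library, and C5ar1 also without either Tfam+/- library.

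The leukocyte markers moved with these genes. All 10 macrophage and leukocyte markers were lower in Tfam+/-Zbp1-/- than in Tfam+/-, with a median of -1.20. Of these markers 9 were called lower, and Itgam is on both lists. Their sums were 6000 and 5490 in Tfam+/-, 4772 and 4729 in WT, 3067 and 2809 in Zbp1-/-, and 2458 and 2415 in the double mutant. In bulk RNA fewer cells of a type and less RNA per cell cannot be told apart. The part of these cells in the C1q and receptor values was not tested.

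**Figure D3:**
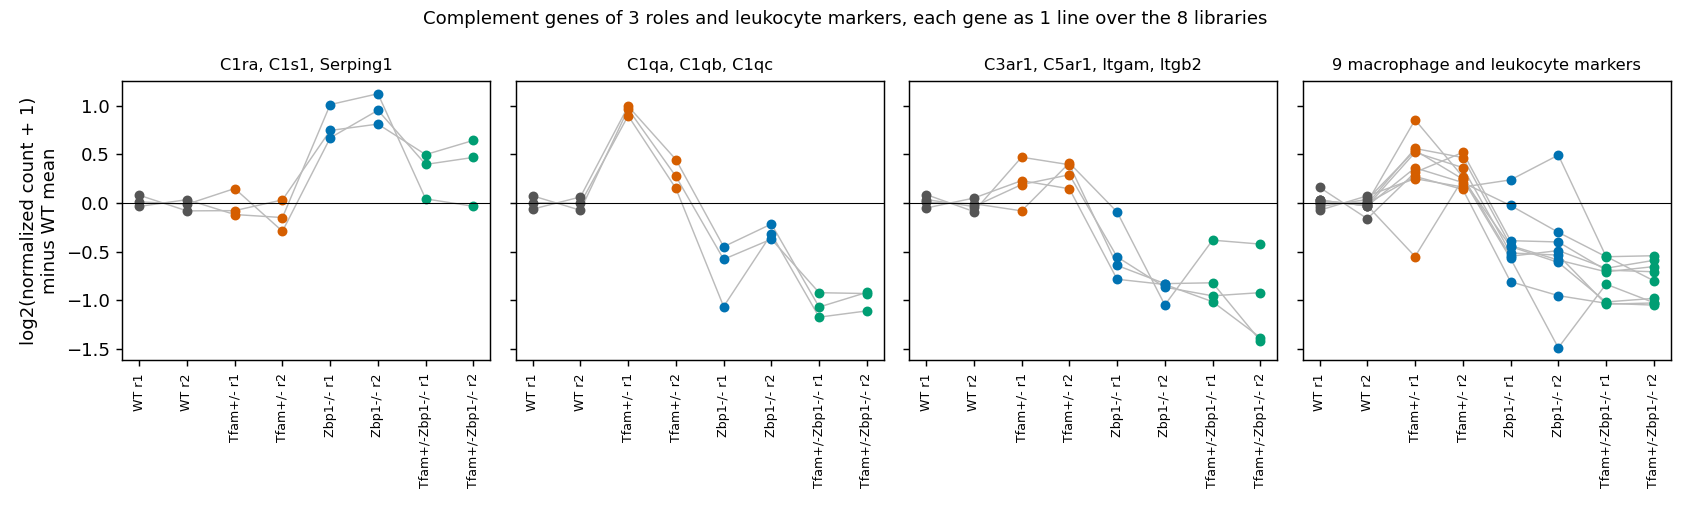
Log2(normalized count + 1) minus the WT mean (vertical axis) in the 8 libraries, with 1 grey line per gene, for C1ra, C1s1 and Serping1, for the C1q chains, for 4 receptors and for 9 leukocyte markers. The C1q chains and receptors fall below 0 in the Zbp1-/- and Tfam+/-Zbp1-/- libraries, as do most leukocyte markers, while C1ra, C1s1 and Serping1 are above 0 in both Zbp1-/- libraries.

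The genes most like each complement gene were listed by Pearson correlation of log2 values over the 8 libraries, which share genotypes and the opposite replicate differences of Tfam+/- and Zbp1-/-. The values are descriptions. Closest to C1ra were Mfap2 (0.995), Cd248 (0.993) and Nynrin (0.990), of which Mfap2 encodes a microfibril protein and Cd248 a surface protein of stromal cells. For Serping1 they were Dpt (0.990), Ifi202b (0.986) and Adh1 (0.977). Dpt, for the matrix protein dermatopontin, was at 287 and 284 in WT and 672 and 691 in Zbp1-/-. Ifi202b was listed at 0 in the 6 libraries of the other genotypes.

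C3 was closest to Gstm2 (0.979), Mmp23 (0.977) and Mmp15 (0.973), and C4b to Ccdc28a (0.974), Eps8l1 (0.969) and Arsi (0.962). Cfb was closest to H2-M3 (0.962), Trp53i11 (0.927) and Tbx1 (0.926). Closest to Cd55 were the guidance genes Sema3c (0.993), Efna5 (0.991) and Slit2 (0.991), which were also low in Tfam+/- replicate 1 beside replicate 2. Among the complement genes themselves C3 and Serping1 were closest (0.93), then C1ra and C4b (0.85), and Cd55 and Cfb were at -0.49.

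**Figure D4:**
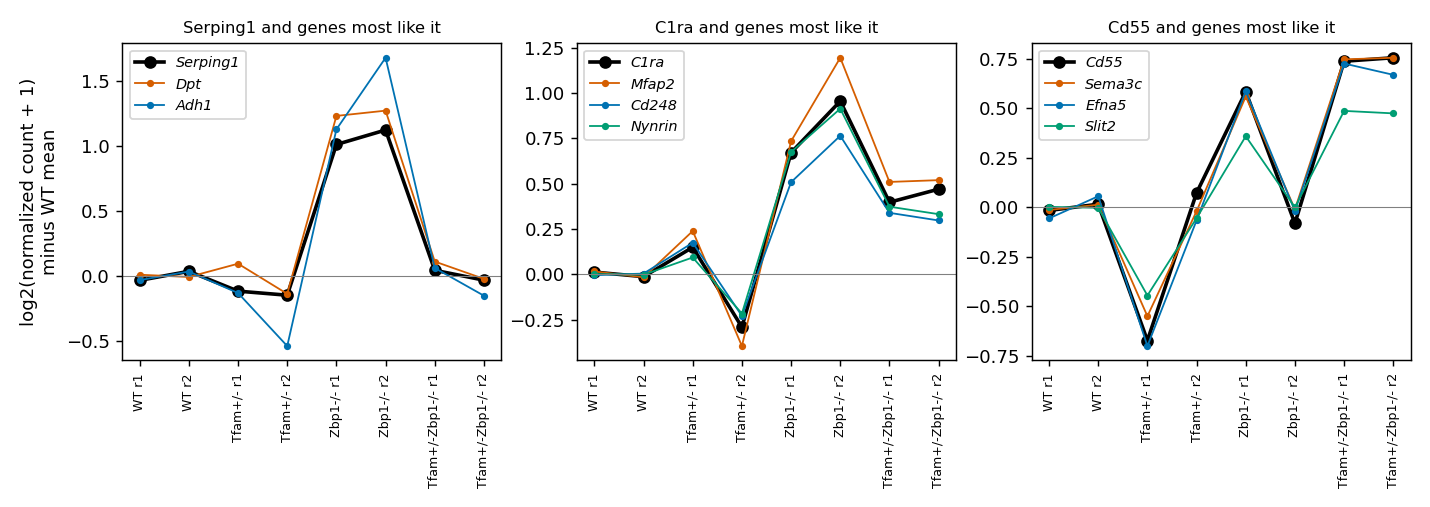
Log2(normalized count + 1) minus the WT mean (vertical axis) in the 8 libraries for Serping1, C1ra and Cd55 (black) and the genes most like each (colours). Ifi202b is left out of the Serping1 panel since it is listed at 0 in 6 libraries. Serping1 and Dpt are high in both Zbp1-/- libraries, and Cd55 with its 3 genes is lowest in Tfam+/- replicate 1.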

How the data were processed

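RNA of 8 fibroblast libraries was measured. Per the series' design text, the authors used an alignment application of the BaseSpace platform with STAR, mm10 and RefSeq genes. The submitters' processing notes name STAR 2.6.1a and Salmon. Each deposited value is a gene's signal as a normalized count scaled by the authors. How it was scaled, and whether strand was used, the sources used here do not state. In each library 1 repeated low value was taken as the worth of a read, and 22.1% to 34.8% of low values lay within 0.01 of a whole multiple, so whole reads were not recovered and no count model was run.

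limma 3.58.1 in R 4.3.3 (lmFit, eBayes with trend) fitted the 4 genotypes together on log2(normalized count + 1), with 4 residual and 2.77 prior degrees of freedom. The pseudocount of 1 makes fold changes of low genes too small. Tests were two-sided and adjusted over the 13267 genes tested. The code was tested on simulated data. The 6 complement genes, the lists, the promoter motifs and the shared term were chosen with earlier results of these data known.

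Named genes were the 6, Tfam and Zbp1, other listed complement genes called in any comparison, near copies, and the 3 genes most like each (SD of at least 0.3). Transcript lengths and shared windows were computed from GENCODE M21. Alternatives were other pseudocounts, filters, scaling, priors and sample sets, a replicate block, and leaving out each library. A further list of 16 inflammatory genes had 12 tested and 1 called in Tfam+/- against WT, with a median of 0.08.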

Additional observations from a re-analysis of the deposited data

Results flagged for a closer look

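Cfb moved in opposite directions in the 2 settings of each mutation, in every library. Loss of Zbp1 gave a log2 difference of 1.43 with both Tfam alleles present (Zbp1-/- against WT) and of -1.43 with 1 allele (Tfam+/-Zbp1-/- against Tfam+/-). Loss of a Tfam allele gave 1.43 with Zbp1 present (Tfam+/- against WT) and -1.43 without it (Tfam+/-Zbp1-/- against Zbp1-/-). All values were 0.91 to 8.16 normalized counts, under the filter, so this difference was not tested with the filter. With no filter limma gave its interaction as -2.86 ± 0.71 and did not call it (adjusted p 0.19).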

How the results depend on the processing

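Counts are given first for Tfam+/- and Zbp1-/- against WT, then for the double mutant (Tfam+/-Zbp1-/-) against WT, Tfam+/- and Zbp1-/-, and last for the interaction. Of the 5 complement genes tested, limma called 0, 1, 0, 1, 1 and 0. With the shared term it called 2, 4, 3, 3, 2 and 3, and in the 6 other libraries 2, 4, 3, 3, 2 and 2. Over the 27 pathway genes the counts were 0, 2, 2, 9, 1 and 0, with the shared term 10, 18, 18, 21, 11 and 10, and in the 6 libraries 7, 18, 17, 19, 12 and 10. Fits of only the genotypes compared called 0 of the 5 in Zbp1-/- against WT and in both comparisons of the double with a single mutant, and 3 in Tfam+/-Zbp1-/- against WT. For the pathway they gave 0 in Zbp1-/- against WT, 17 in Tfam+/-Zbp1-/- against WT, where 44.7% of all genes were called, and 0 against Zbp1-/-. C4b in Tfam+/-Zbp1-/- against Tfam+/- was the call lost, leaving 0 of the 5, with a pseudocount of 0.1, no filter, a mean of at least 50 (which drops C4b) and rescaling by trimmed means. With no filter the pathway count was 1 in Zbp1-/- against WT and 1 in Tfam+/-Zbp1-/- against WT, and with rescaling 1 in Zbp1-/- against WT. Rescaling moved the median of all genes from 0.11 to -0.01 in Zbp1-/- against WT, from 0.12 to 0.00 in the double mutant against WT and from 0.14 to 0.03 against Tfam+/-, and the calls there from 119 higher and 22 lower to 58 and 23, from 119 and 64 to 90 and 100, and from 440 and 308 to 323 and 408. Serping1 in Zbp1-/- was then 0.95 (adjusted p 0.027). Leaving out each library gave 0 to 0, 0 to 2, 0 to 0, 0 to 1, 0 to 1 and 0 to 0 of the 5, and 0 to 1, 0 to 4, 0 to 3, 0 to 9, 0 to 1 and 0 to 2 pathway genes. Without either Tfam+/- library C1ra was called in Zbp1-/- against WT (0.81).

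With the replicate block 0 of the 5 were called in Zbp1-/- against WT, in Tfam+/-Zbp1-/- against Tfam+/- and against Zbp1-/-, and pathway counts were 0 in Zbp1-/- against WT, 0 in the double mutant against WT, 5 against Tfam+/- (C1s1 and C4b not among them) and 0 against Zbp1-/-. The replicate numbers did not pair the libraries: correlations of replicate differences between genotypes were -0.70 to 0.06. Some directions reversed, and not all of these changes were near 0 in the main fit. Cd55 was at -0.30 in Tfam+/- against WT and at 0.25 in Zbp1-/- against WT, and the C1ra interaction was -0.31. Leaving out each library gave, in Tfam+/- against WT, -0.29 to 0.15 for C1ra (above 0 without Tfam+/- replicate 2), -0.48 to 0.13 for C3 (above 0 without WT replicate 1 or Tfam+/- replicate 2) and -0.67 to 0.073 for Cd55 (above 0 without Tfam+/- replicate 1). It gave -0.081 to 0.58 for Cd55 in Zbp1-/- against WT (below 0 without Zbp1-/- replicate 1) and -0.033 to 0.043 for Serping1 in the double mutant against WT (below 0 without replicate 1 of either). C3 in the double mutant against Tfam+/- ranged from -0.36 to 0.011 (above 0 without Tfam+/- replicate 1), and C4b against Zbp1-/- from -0.15 to 0.20 (below 0 without Zbp1-/- replicate 1 or double mutant replicate 2). Under the shared term Cd55 in Tfam+/- was 0.053, C3 in the double mutant against Tfam+/- 0.058 and the C1ra interaction 0.053, and in the 6 libraries these were 0.073, 0.011 and 0.053. After rescaling Serping1 in the double mutant against WT was -0.11. Where a fit had 1 library of a genotype, it was assumed to vary like the others. The cause of these changes was not tested. Low levels limit Cfb, C4b and C4a, with means of 4.16, 20.03 and 9.10 normalized counts.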

Other observations

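Colec10, a collectin of the lectin pathway named after its values were seen, was at 11.4 and 10.8 normalized counts in WT and 69.7 and 46.3 in Zbp1-/-. The log2 change was 2.26 ± 0.56 (limma, adjusted p 0.13) and was not called, though it was called without either Tfam+/- library (lowest adjusted p 0.029). With the term shared by Tfam+/- replicate 1 and Zbp1-/- replicate 2 it was 2.85 (adjusted p 2.3e-05).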
